A study of Penicillium oxalicum with 12 samples.

Results

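The transcript levels of a strain carrying alanine in place of lysine 131 of histone H2B (H2BK131A) were compared with those of a strain lacking laeA (DlaeA) in the filamentous fungus Penicillium oxalicum, which secretes enzymes that break down plant cell walls. Of the 12 libraries measured, 3 are of H2BK131A and 3 of DlaeA. The other 6 are of the wild type 114-2 (WT) and of a strain with the same exchange at lysine 123 of H2B (H2BK123A), and they serve here to show where the values of both mutants lie. All 4 strains were pre-cultured from conidia for 22 h at 30 °C with 2% glucose, washed and kept for another 24 h in Mandel's medium, also with 2% glucose, before the mycelia were harvested. The labels do not say how the H2B alleles were made, whether a strain was kept as 1 clone, or whether the 3 libraries of a strain come from separate cultures. The spread that enters the p-values is thus that of these libraries and may be technical.

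LaeA is a methyltransferase-like nuclear protein of filamentous fungi. In Aspergillus it acts with velvet proteins, and its loss is known to silence many clusters of secondary metabolite genes and to disturb asexual sporulation. Histone H2B is one of the 4 core histones around which DNA is wrapped, and lysines in its tail regions can carry ubiquitin or acetyl groups. In budding yeast, ubiquitin on a lysine near the end of H2B is needed for the methylation of a neighbouring histone by the COMPASS complex. The comparison asks which genes differ between the loss of a regulator and a change in the histone itself, in mycelia on glucose.

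The deposited values are FPKM, a measure of read fragments corrected for transcript length and library size, for 9931 genes. A gene was tested when its FPKM reached 1 in at least 3 of the 12 libraries, which 9431 genes did and 500 did not. Differences are given as H2BK131A minus DlaeA on the log2(FPKM + 1) scale, ± SE with n = 3 libraries in each strain. That scale understates the change of genes with low values. Adjusted p-values come from limma with the Benjamini-Hochberg adjustment over the 9431 genes, and a gene is called when its value is under 0.05. The table gives no read counts, so the depth behind a value is unknown. FPKM summed to between 747266.5 and 764698.6 in the H2BK131A libraries and to between 722703.6 and 727026.7 in the DlaeA libraries. In these libraries 157 to 169 and 220 to 233 genes were listed at 0.

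PDE_00584, which is laeA as recalled from published work, had FPKM of 39.4, 39.1 and 33.6 in the H2BK131A libraries and of 0.11, 0.05 and 0 in the DlaeA libraries, a difference of 5.18 ± 0.10 (limma adjusted p = 3.53e-12). No description in the deposited table names laeA. The H2B gene PDE_01489 was at 1100.5, 1059 and 1117 in H2BK131A and at 691, 793 and 724 in DlaeA (0.57 ± 0.13, limma adjusted p = 0.00148). Its libraries did not overlap, as in 83.4% of all tested genes. With quantile scaling the difference shrank to 0.23 and was no longer called (limma adjusted p = 0.139). The neighbouring histone H2A gene PDE_01490, chosen after its values were seen, was at 1171, 1131 and 1163 against 758, 806 and 790.1 (0.56 ± 0.13), and it lost its call in the same way (0.27, limma adjusted p = 0.124). Neither gene shows the alanine codon, so the label of the H2B mutant was not checked by these values.

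The spread within each strain was small beside the difference between them. The SD of the log2 difference over genes was 0.231 to 0.304 for pairs of H2BK131A libraries and 0.174 to 0.325 for pairs of DlaeA libraries, against 1.695 to 1.855 for pairs across the strains. DlaeA 2 and DlaeA 3 were the closest pair, and DlaeA 1 stood apart from both in some genes, as their library values show. The per-gene SD of log2 values had a median of 0.124 in each of the 2 strains, and of 0.223 in WT. WT 2 was at 439.7 in a gene, PDE_09236, in which WT 1 and WT 3 were at 4451 and 3834.

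Of the 9431 genes, 7308 were called, or 77.5%. In H2BK131A 3416 were higher (36.2%) and 3892 were lower (41.3%). At least 2-fold on the scale used, 1976 were higher (21.0%) and 2039 lower (21.6%). At least 16-fold, 212 were higher and 202 lower. In 7868 genes (83.4%) the ranges of H2BK131A and DlaeA were apart. With so large a background, a call for a single gene says little, and sizes and library values are given beside it. Called genes were 46.7% higher as deposited and 50.8% or 49.0% higher with median ratio or quantile scaling. The median difference of all genes was -0.08, 0.03 and -0.01 in these settings, a shift of 0.10 by median ratio.

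**Figure D1:**
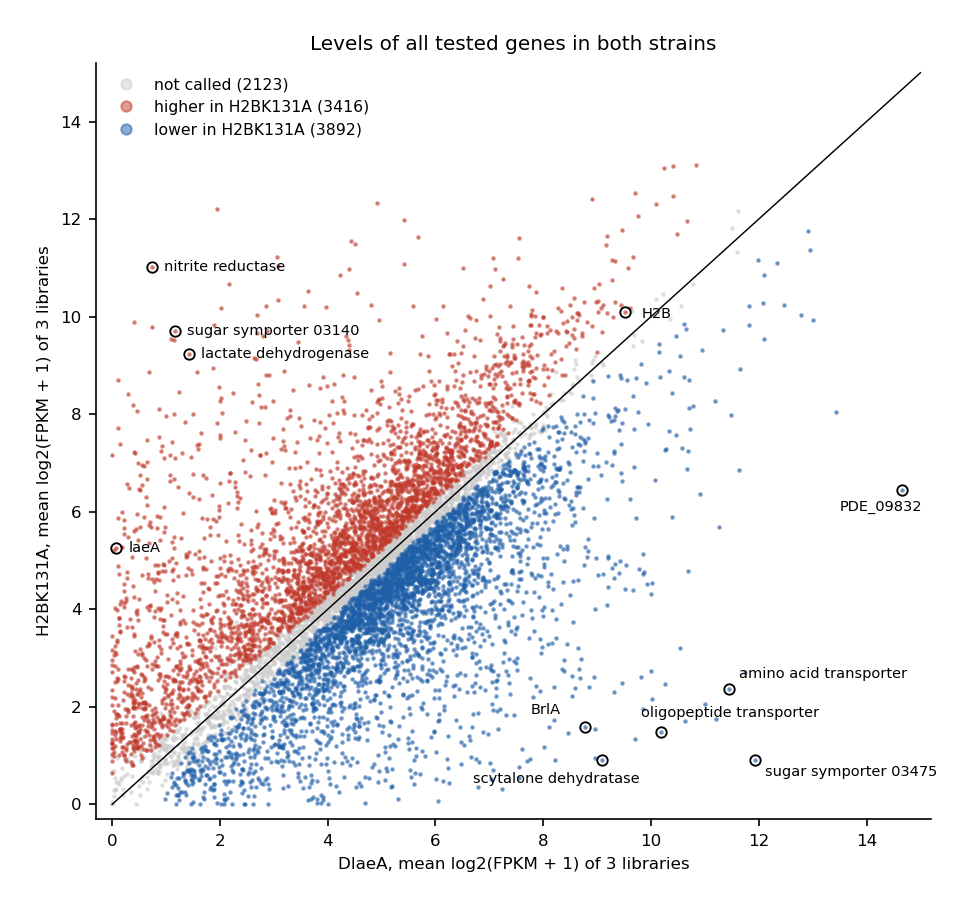
Mean log2(FPKM + 1) of 3 libraries of DlaeA (x axis) and of H2BK131A (y axis) for the 9431 tested genes, coloured by call, with the line of equal level and 11 labelled genes. The nitrite reductase gene lies at the upper left and the sugar symporter PDE_03475 at the lower right, with differences of 10.28 and -11.01.

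Genes of nitrate use were much higher in H2BK131A, and one of them held the largest positive difference of the table. Filamentous fungi take up nitrate, reduce it by nitrate and nitrite reductase to ammonium, and bind ammonium by glutamate dehydrogenase, glutamine synthetase and glutamate synthase. The wider nitrogen assimilation list also holds other genes, such as a nitrilase. Of its 40 tested genes 22 were higher in H2BK131A and 13 lower. These are 55% and 32.5%, against 36.2% and 41.3% of all genes, with a median difference of 0.66 against -0.08. The nitrate reductase gene PDE_00369 was at FPKM 897, 905 and 1036 in H2BK131A and at 0.35, 0.34 and 0.3 in DlaeA (9.47 ± 0.27, limma adjusted p = 7.51e-11). Its neighbour PDE_00370, described as nitrite reductase, was at 1877, 2049 and 2313 against 0.62, 0.76 and 0.63 (10.28 ± 0.36). The next locus, the nitrate transporter PDE_00371, was at 723, 757 and 853 against 6.2, 5.98 and 5.59 (6.81 ± 0.19). All 3 neighbours were thus abundant in every H2BK131A library and close to nothing, or low, in every DlaeA library.

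WT was low in these genes as well. In WT PDE_00370 was at 2.94, 9.18 and 3.08, and DlaeA did not pass the test against WT for PDE_00369 (-0.50, limma adjusted p = 0.113). In PDE_00370 it was called lower than WT (-1.71, limma adjusted p = 0.00119). H2BK131A lay 8.97 above WT in PDE_00369. H2BK123A was in between, with PDE_00370 at 279, 139.8 and 115, and the test between the H2B mutants gave a difference of 3.64 ± 0.36 (limma adjusted p = 3.31e-06). A further nitrate reductase gene, PDE_02461, chosen after its values were seen, was near 1 in both strains (-0.13 ± 0.18, limma adjusted p = 0.52).

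Ammonium handling differed in both directions. PDE_06117, an NADP+ glutamate dehydrogenase of the kind that builds glutamate from ammonium, was at 1039, 981 and 1144 in H2BK131A and at 4.26, 5.94 and 6.29 in DlaeA (7.36 ± 0.58). PDE_06171, described as glutamate dehydrogenase without a stated cofactor, went the other way, at 52.6, 45.8 and 53.9 against 2079, 2643 and 2706 (-5.57 ± 0.21). The strains therefore did not overlap in either gene, as in 83.4% of all genes, and their order was opposite. The ammonium transporter PDE_00679 was at 242, 219.6 and 226 against 1.13, 1.5 and 2.17 (6.49 ± 0.30), while the transporter PDE_07123 of the same family was lower (-2.56 ± 0.18). Nitric oxide dioxygenase PDE_01345, which turns nitric oxide into nitrate, was at 2437, 3383 and 3299.5 against 12.4, 27.5 and 25.1 (7.13 ± 0.30), and was also higher than in H2BK123A (2.04). Glutamine synthetase PDE_08346 (1.36), glutamate synthase PDE_02386 (1.61) and a further nitrite reductase PDE_05880 (2.48) were higher by less. PDE_00679, PDE_01345, PDE_08346, PDE_02386 and PDE_05880 were chosen after their values were seen. Genes for other nitrogen sources were split. Of 7 tested allantoate permease genes 2 were higher (28.6%, against 36.2% of all genes) and 4 lower (57.1%, against 41.3%). Among them PDE_06884 was higher (5.88 ± 0.23) and PDE_07121 lower (-3.68 ± 0.16). Nitrilase PDE_07435 was lower (-3.86 ± 0.13) and nitrilase PDE_06051 higher (2.66 ± 0.14).

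**Figure D2:**
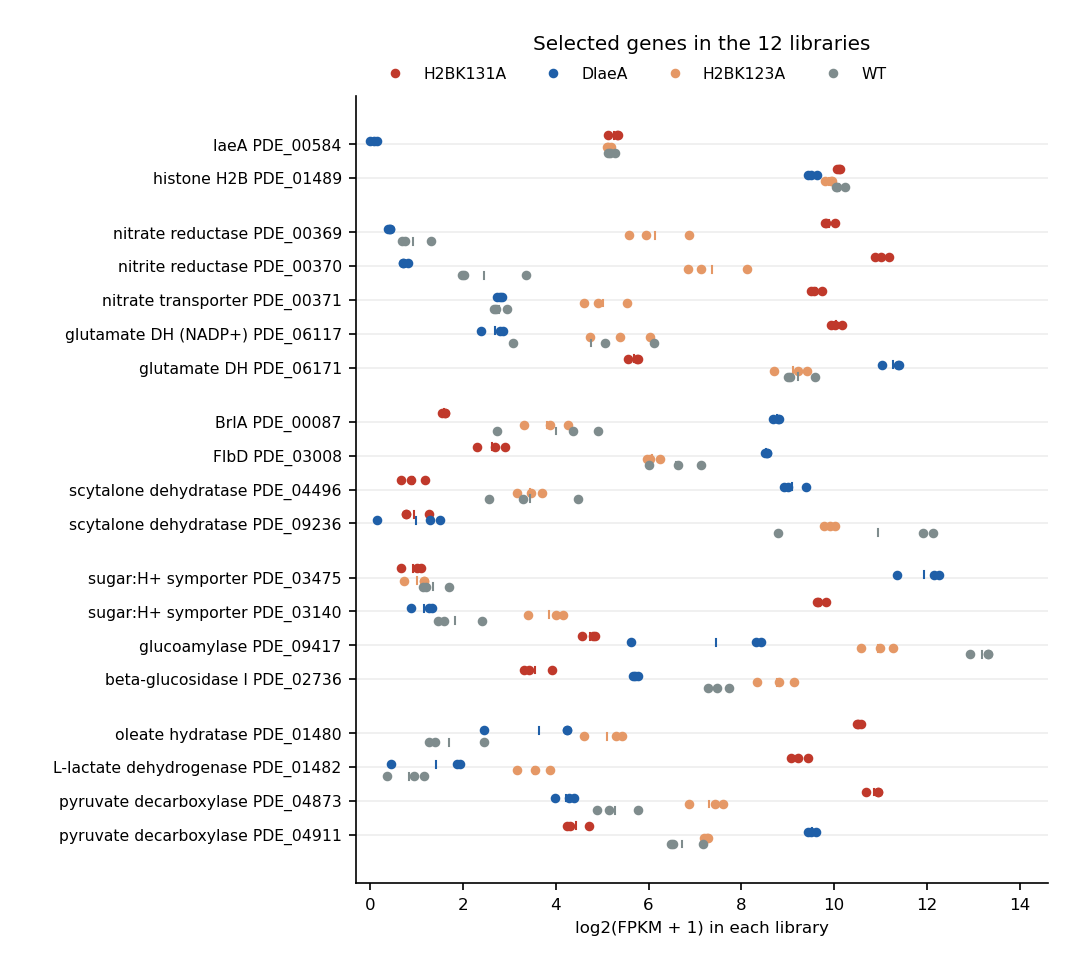
log2(FPKM + 1) in each of the 12 libraries for 19 genes, with 1 point for each library and a bar at the mean of each strain. In the nitrate genes the H2BK131A points lie far right of the DlaeA points, in BrlA, FlbD and PDE_04496 far left, and in PDE_09236 both strains lie near 1 while H2BK123A and WT lie at 8 or higher.

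The regulator genes BrlA and FlbD of asexual development were low in H2BK131A and high in DlaeA, while the list they belong to was split. BrlA is the zinc finger regulator that starts conidiophore formation in Aspergillus and Penicillium, and FlbD is a Myb-type activator that acts before it. The BrlA gene PDE_00087 was at FPKM 1.9, 2.06 and 2.06 in H2BK131A and at 412, 449 and 444 in DlaeA (-7.18 ± 0.42, limma adjusted p = 2.27e-08). The FlbD gene PDE_03008 was at 5.48, 3.89 and 6.49 against 376, 365 and 372 (-5.91 ± 0.23). WT and H2BK123A lay between the strains in both genes, with PDE_00087 at 5.67, 19.7 and 28.9 in WT and at 8.95, 18.2 and 13.6 in H2BK123A. The difference of PDE_00087 from WT was 4.76 in DlaeA and -2.42 in H2BK131A, and the H2B mutants differed from each other as well (-2.23 ± 0.42, limma adjusted p = 0.000579).

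Scytalone dehydratase, an enzyme of the dihydroxynaphthalene melanin route that colours conidia, is the description of 2 loci that differed in pattern. PDE_04496 was at 1.27, 0.85 and 0.58 in H2BK131A and at 666, 512 and 479 in DlaeA (-8.19 ± 0.37). PDE_09236 was at 0.71, 0.71 and 1.39 against 1.45, 1.83 and 0.1, which overlapped and was not called (-0.04 ± 0.69, limma adjusted p = 0.959). Next to PDE_04496, the reductase PDE_04495 was lower as well (-9.45 ± 0.45). Opposite to these, the naphthopyrone polyketide synthase PDE_09491 was higher in H2BK131A, at 109, 153 and 128 against 47.5, 59.3 and 63.7 (1.18 ± 0.31). So was PDE_01188, described as the spore wall protein DIT1, at 92.7, 537 and 420.3 against 1.02, 0.91 and 0.61 (7.23 ± 1.21), with H2BK131A 1 well below the other 2 libraries. A second, low gene described as BrlA, PDE_00079, was lower (-1.10 ± 0.23).

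The marker list of conidiophores and conidia holds 8 genes, which are those above other than PDE_04495, and the reductase PDE_09239 described next. No description names AbaA, WetA or a hydrophobin. In H2BK131A 2 of the 8 were higher (25%, against 36.2% of all genes) and 4 lower (50%, against 41.3%), with a median of -0.57. Their FPKM summed to 214.1 to 700.8 in the H2BK131A libraries and to 1362.9 to 1506.0 in the DlaeA libraries, and 0 of the 8 were listed at 0 in all libraries of either strain. Fewer cells of a type and less RNA per cell cannot be told apart in such mycelial extracts. The part of sporulating structures in the other differences was not tested.

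The stretch of 25 neighbouring loci around PDE_09236, from PDE_09227 to PDE_09251, was low in most of its members in both strains. Its median of mean FPKM was 3.6 in H2BK131A and 0.98 in DlaeA, against 265.3 in H2BK123A and 494.4 in WT. Its highest member in H2BK131A, PDE_09251, had a mean of 117 there. Between the strains compared, 13 of the 25 genes were higher in H2BK131A, 0 were lower and 12 were not called, with a median difference of 1.28. Tetrahydroxynaphthalene reductase PDE_09239, from the same melanin route, was at 3.17, 2.73 and 5.04 against 0.77, 1.6 and 0.68 and was not called (1.20 ± 0.59, limma adjusted p = 0.08). It was called without the 6 other libraries, without WT 2 and with a pseudocount of 0.1 (limma adjusted p = 0.00164, 0.000144 and 0.02). The O-methyltransferase PDE_09244 was at 13, 10.5 and 11.1 against 0.26, 0.35 and 0.04 (3.37 ± 0.16). Against H2BK123A, 23 of the 25 were lower in H2BK131A, with a median of -6.31, where 35.8% of all genes were lower. The stretch was chosen because earlier results of these data showed it low in DlaeA.

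**Figure D3:**
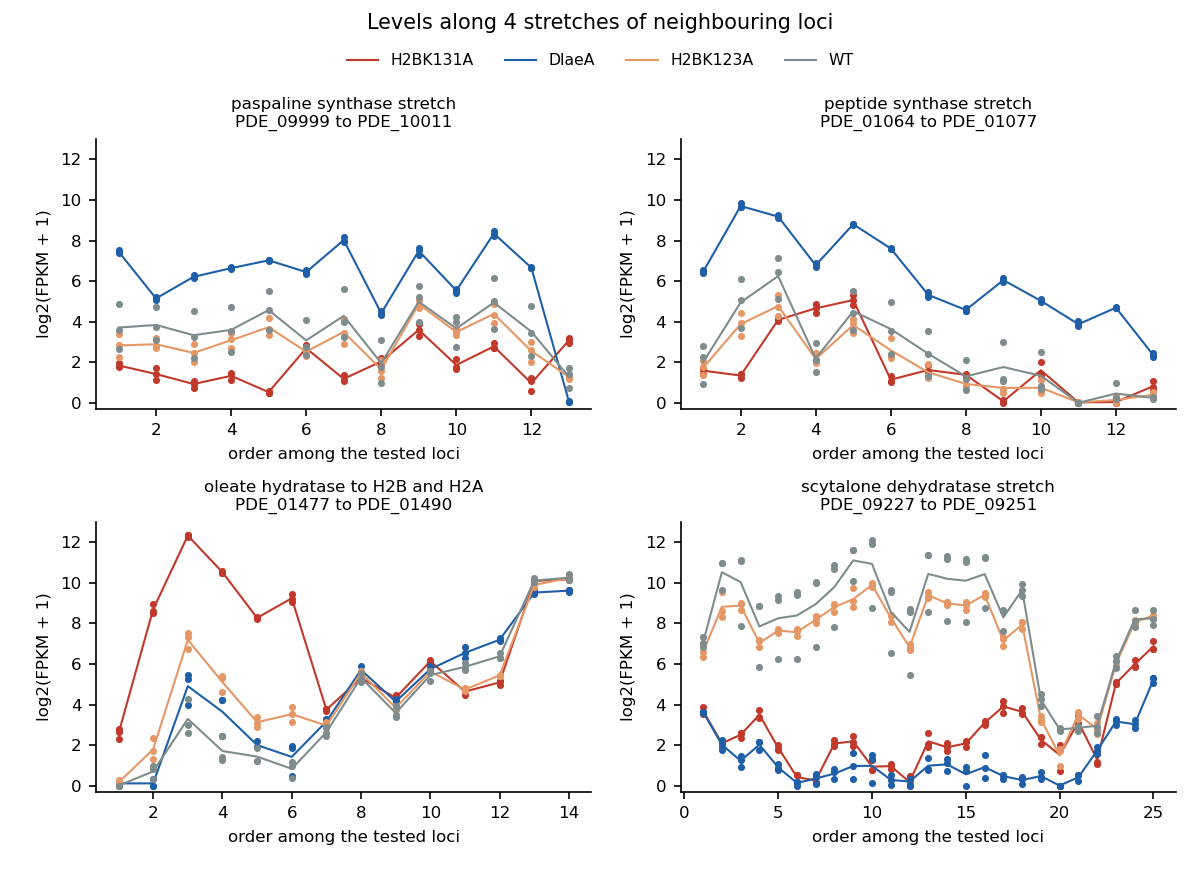
log2(FPKM + 1) along 4 stretches of neighbouring loci, in order of locus number, with points for libraries and lines through the strain means. DlaeA lies on top in the paspaline and peptide synthase stretches, H2BK131A on top at the first 6 loci before H2B, and both lie far below WT and H2BK123A in most of the scytalone dehydratase stretch.

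Genes of secondary metabolism, whose clusters LaeA is known to regulate in Aspergillus, were described through 32 tested backbone enzyme genes. In H2BK131A 10 of them were higher (31.2%, against 36.2% of all genes) and 16 lower (50%, against 41.3%), with a median of -0.38. The largest stretches with lower values were 2 sets of neighbours, both high in DlaeA alone among the 4 strains. Both were found as runs of neighbours called at least 2-fold lower in H2BK131A, so by that rule all their tested members are lower. The first, PDE_09999 to PDE_10010, holds 12 genes with a median of -5.30. Its median of mean FPKM was 2.15 in H2BK131A, 99.5 in DlaeA, 7.07 in H2BK123A and 14.3 in WT. The stretch includes genes described as paspaline synthase and geranylgeranyl diphosphate synthase, which belong to the making of indole diterpenes. Paspaline synthase PDE_10000 was at 2.32, 1.67 and 1.14 in H2BK131A and at 32.1, 35.3 and 35.9 in DlaeA (-3.73 ± 0.33, limma adjusted p = 6.61e-07). The polyprenyltransferase PDE_10005 was at 1.09, 1.55 and 1.18 against 288, 249.5 and 241 (-6.84 ± 0.48). The run ended sharply, since the next locus, the alpha-1,3-glucanase PDE_10011, chosen after its values were seen, was higher in H2BK131A (3.01 ± 0.21).

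The second stretch, PDE_01064 to PDE_01077, holds 13 tested genes, all lower in H2BK131A by the same rule, with a median of -3.85. It includes 2 genes described as brevianamide F synthase, a nonribosomal peptide synthetase that joins tryptophan and proline, and a prenyltransferase acting on cyclic dipeptides. The prenyltransferase PDE_01066 was at 16.4, 15.4 and 16.4 in H2BK131A and at 603, 577 and 560.1 in DlaeA (-5.09 ± 0.40). The locus before it, PDE_01065, has no description and was at 1.3, 1.65 and 1.67 against 917, 792 and 792 (-8.36 ± 0.47). In both stretches the DlaeA libraries were close to each other and far above all H2BK131A libraries. Against WT, DlaeA was higher in 12 of 12 and 13 of 13 genes, with medians of 2.96 and 3.97, where 46.3% of all genes were higher. Both stretches were picked for being higher in these same DlaeA libraries than in H2BK131A, so these counts are not independent of that choice.

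Smaller runs, found by the same rule, were lower in H2BK131A as well. Trichodiene synthase PDE_01430, which forms the first ring system of trichothecenes, was at 0.3, 0.42 and 0.18 against 36.4, 35.9 and 34.3 (-4.82 ± 0.45), within the run PDE_01429 to PDE_01433 of 5 genes with a median of -4.28. The O-methyltransferase PDE_06881 (-3.88) and the multidrug transporter PDE_06880 (-6.36) lie in a run of 6 with a median of -4.17 that ends at PDE_06883. At PDE_06884 the direction turned, and the 7 genes from PDE_06884 to PDE_06890 were higher with a median of 5.20. They include gentisate 1,2-dioxygenase PDE_06887, an enzyme of aromatic ring breakdown, at 203, 184 and 178 against 2.01, 3.83 and 3.34 (5.57 ± 0.20).

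Other backbone genes were higher in H2BK131A. The hybrid synthase PDE_01235, described as aspyridone synthetase, was at 6.37, 8.94 and 12.2 in H2BK131A and at 0.85, 0.49 and 0.53 in DlaeA (2.61 ± 0.18), in a run of 8 higher genes from PDE_01231 to PDE_01238 with a median of 2.37. The highly reducing polyketide synthase PDE_04441, described as zearalenone synthase, was at 14.9, 20.1 and 17.9 against 2.19, 1.99 and 2.16 (2.57 ± 0.13). A brevianamide F synthase gene outside the stretch above, PDE_01212, was at 103, 122 and 111 against 15.3, 19.6 and 20.2 (2.55 ± 0.73, limma adjusted p = 0.00706). Its libraries were close within both strains, and the wide SE comes from the spread shared with WT, at 736, 65.3 and 705. Its neighbours PDE_01213 and PDE_01218 lost their call when DlaeA 1 was left out (limma adjusted p = 0.0637 and 0.112). Without WT 2 both were called (limma adjusted p = 1.38e-05 and 9.38e-05). Cytochrome P450 genes were split, with 11 of 21 higher (52.4%, against 36.2% of all genes) and 9 lower (42.9%, against 41.3%).

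Over the whole table, 71 runs of at least 5 neighbouring tested loci were called in 1 direction with at least 2-fold differences. They hold 434 genes, in 32 runs that were higher in H2BK131A and 39 that were lower. Locus order stood in for position, and 12 runs reached 8 genes, 6 in each direction. The most pronounced run of higher genes by its largest member was PDE_01191 to PDE_01199, with a median of 5.65 over 8 genes. In it the glutathione S-transferase PDE_01194, an enzyme that couples glutathione to foreign or oxidized compounds, was at 3169, 5876 and 5667 in H2BK131A and at 1.94, 5.59 and 1.98 in DlaeA (10.26 ± 0.37, limma adjusted p = 4.75e-10). The H2B mutants were closer to each other in this gene (0.87 ± 0.37, limma adjusted p = 0.0548). A run of 8 with a median of 5.96, PDE_05884 to PDE_05892, holds 2 genes of tryptophan breakdown, indoleamine 2,3-dioxygenase PDE_05885 (6.30) and tryptophanase PDE_05889 (6.78). Both were lower in H2BK131A than in H2BK123A, with differences of -1.35 and -1.45.

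A run of 6 genes close to the H2B gene itself was much higher in H2BK131A than in the other 3 strains. PDE_01477 to PDE_01482 had a median difference of 7.15 from DlaeA. Oleate hydratase PDE_01480, which adds water to the double bond of oleic acid, was at FPKM 1452, 1527 and 1443 in H2BK131A and at 4.5, 17.8 and 17.8 in DlaeA (6.89 ± 0.44). L-lactate dehydrogenase PDE_01482 was at 538, 694 and 591 against 0.37, 2.65 and 2.81 (7.82 ± 0.35), and pyruvate, water dikinase PDE_01481 at 315, 309.8 and 300.0 against 2.72, 3.52 and 2.8 (6.27 ± 0.18). In PDE_01480 and PDE_01482 DlaeA 1 lay below DlaeA 2 and DlaeA 3, and every H2BK131A library was far above all 3. The undescribed PDE_01478 was at 369.9, 489 and 391 against 0.26, 0 and 0 (8.58 ± 0.25). Against H2BK123A the differences of PDE_01478, PDE_01480, PDE_01481 and PDE_01482 were 6.91, 5.42, 5.14 and 5.72, with limma adjusted p-values from 3.06e-09 to 7.27e-07. H2B is PDE_01489. In the 24 tested loci from PDE_01477 to PDE_01500, a window set after the values were seen, 17 were higher and 4 lower. These are 70.8% and 16.7%, against 36.2% and 41.3% of all genes, and the window takes in the 6 genes of the run. Autophagy gene PDE_01488, described as the protease ATG4, was the locus just before H2B and was lower (-2.11 ± 0.10). The construct behind the H2B allele is not given in the sources used here.

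Starch-degrading enzymes were mostly lower in H2BK131A. Of 13 tested amylase genes 10 were lower (76.9%, against 41.3% of all genes) and 2 higher (15.4%, against 36.2%), a median of -2.57. The glucoamylase Amy15A, PDE_09417, which releases glucose from starch, was at FPKM 26.8, 22.6 and 27.8 in H2BK131A and at 48, 341 and 315 in DlaeA (-2.71 ± 0.57, limma adjusted p = 0.000924). DlaeA 1 lay far below DlaeA 2 and DlaeA 3, and the lowest DlaeA library was still above the highest H2BK131A library. Both strains were far under WT, at 7746, 10192 and 10117, and H2BK123A was at 1523, 2476 and 2040.2. Alpha-amylase PDE_01201 was at 5.46, 4.07 and 4.9 against 66.2, 197 and 202 (-4.59 ± 0.46), with the same order among the DlaeA libraries. The alpha-glucosidase PDE_00400 (-4.21 ± 0.42) and the glucoamylase PDE_05527 (-3.40 ± 0.34) were lower too. The 2 higher genes were the alpha-glucosidase PDE_03235 (1.75 ± 0.10) and the alpha-amylase PDE_04683 (1.09 ± 0.11).

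Cellulases were lower in 15 of 27 genes (55.6%, against 41.3% of all genes) and higher in 4 (14.8%, against 36.2%), with a median of -0.80. They act on cellulose together, as cellobiohydrolases, endoglucanases and beta-glucosidases. Unlike the counts, their summed FPKM was higher in H2BK131A, at 790.1 to 812.7, than in DlaeA, at 628.7 to 693.1. The cellobiohydrolase PDE_07945 was at 1, 0.77 and 0.72 in H2BK131A and at 22.7, 21.4 and 22.8 in DlaeA (-3.67 ± 0.27). Beta-glucosidase I PDE_02736 was at 14, 8.89 and 9.63 against 49.4, 51.2 and 53.9 (-2.17 ± 0.20), and H2BK123A, at 322, 557 and 449, was above both. The endoglucanase Cel7B PDE_07929 was low in both strains, at 4.21, 4.27 and 4.83 against 7.61, 11.9 and 10.9 (-1.02 ± 0.23, limma adjusted p = 0.00161). One endoglucanase went strongly the other way, since PDE_03711 was at 355, 377 and 419 against 16.6, 15.9 and 12.1 (4.61 ± 0.13), and it was also higher than in H2BK123A (2.78).

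Hemicellulases and pectinases split into 36 higher and 44 lower genes of 89, a median of -0.44. A xylanase, PDE_09478, was at 263, 254 and 231 in H2BK131A and at 0.69, 0.85 and 1.53 in DlaeA (6.97 ± 0.17), and a polygalacturonase, PDE_03218, was higher as well (5.51 ± 0.17). In contrast, pectate lyase PDE_06068, which cuts pectin, was at 5.02, 5.33 and 5.02 against 237, 682 and 719 (-6.32 ± 0.33). DlaeA 1 was again the lowest of its strain in PDE_06068.

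The regulators of these enzymes also differed, in both directions. ClrB, an activator of cellulase genes, was higher in H2BK131A, with PDE_05999 at 59.8, 58.2 and 53.9 against 27.6, 30.2 and 29.2 (0.96 ± 0.10). XlnR, an activator of xylanase and cellulase genes, was lower, with PDE_07674 at 13.2, 9.6 and 10.4 against 44.4, 35.4 and 38.6 (-1.75 ± 0.13). CreA, the carbon catabolite repressor that acts on glucose, was lower as well, with PDE_03168 at 202, 156 and 193 against 383, 508 and 489.8 (-1.32 ± 0.18). The cellodextrin transporter CdtD, PDE_00753, was at 12.8, 6.61 and 7.21 against 41.1, 43.1 and 42 (-2.18 ± 0.19). All 4 genes had ranges that were apart between the strains, as had 83.4% of all genes.

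Sugar transporters gave the largest single difference of the table. The symporter PDE_03475 was at FPKM 0.58, 1.14 and 1 in H2BK131A and at 2635, 4934 and 4577 in DlaeA (-11.01 ± 0.24, limma adjusted p = 9.31e-12). WT, at 1.3, 1.2 and 2.25, was as low as H2BK131A, so that only DlaeA was high. The symporter PDE_03140 was the mirror image, at 906, 791 and 805 against 0.83, 1.4 and 1.53 (8.55 ± 0.25), and WT was at 2, 4.32 and 1.73. Of 24 tested sugar symporters 10 were higher (41.7%, against 36.2% of all genes) and 13 lower (54.2%, against 41.3%). Of 8 alpha-glucoside symporters, which import maltose-like sugars, 6 were lower (75%, against 41.3% of all genes) and 1 was higher (12.5%, against 36.2%). Their median was -1.88. Of 104 transporters of the major facilitator superfamily 43 were higher (41.3%) and 50 lower (48.1%), near the shares of all genes.

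Amino acid and peptide transporters were higher in 13 of 26 genes (50%, against 36.2% of all genes) and lower in 8 (30.8%, against 41.3%). The differences of single members were wide. The amino acid transporter PDE_00845 was at 5.74, 3.18 and 3.96 in H2BK131A and at 3079.7, 2627 and 2667 in DlaeA (-9.07 ± 0.18). The oligopeptide transporter PDE_06899 was lower by as much (-8.70 ± 0.21), while the oligopeptide transporter PDE_05534 (6.08 ± 0.17) and the amino acid transporter PDE_00830 (6.52 ± 0.33) were higher. Na+-exporting ATPase PDE_03497, which pumps sodium out of the cell, was at 9.34, 8.2 and 7.42 against 2049, 1233 and 1300.3 (-7.32 ± 0.23). The strains did not overlap in these 5 genes, as in 83.4% of all genes.

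In central carbon metabolism 2 genes described as pyruvate decarboxylase differed in opposite directions. Pyruvate decarboxylase turns pyruvate into acetaldehyde on the way to ethanol. Its gene PDE_04873 was at FPKM 1653, 1967 and 1956 in H2BK131A and at 14.9, 18.5 and 19.9 in DlaeA (6.64 ± 0.23), whereas its gene PDE_04911 was at 25.2, 18.8 and 18 against 696, 783 and 721 (-5.09 ± 0.17). The differences from H2BK123A were 3.55 and -2.82, in the same directions. Of 43 genes of pyruvate, alcohol and lactate metabolism 24 were higher (55.8%, against 36.2% of all genes) and 13 lower (30.2%, against 41.3%). Glycolysis and TCA cycle genes were higher in 27 of 53 (50.9%) and lower in 14 (26.4%), against the same shares of all genes. Citrate synthase PDE_09135 (2.99 ± 0.17) was among the higher. The list was drawn by name patterns. Its largest higher member, homoisocitrate dehydrogenase PDE_05183 (3.12 ± 0.17), is an enzyme of neither route. The largest lower members were a dihydrolipoamide dehydrogenase, PDE_01704 (-2.39 ± 0.23), and an aldolase, PDE_07268 (-2.99 ± 0.33). Phosphoenolpyruvate carboxykinase PDE_08878, which starts glucose synthesis, was lower, at 231, 189 and 199 against 1255, 1903 and 2027, and the mitochondrial carrier PDE_08879 beside it was lower with a difference of -7.31. D-arabinitol dehydrogenase PDE_05532, of pentose use, was at 2.12, 2.13 and 2.55 against 2260.1, 1304 and 1365 (-8.93 ± 0.27).

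Respiration and translation genes were higher in H2BK131A almost as whole lists. Of 66 tested genes of the respiratory chain and ATP synthase 58 were higher and 1 was lower, with a median of 1.05. The shares were 87.9% higher and 1.52% lower, against 36.2% and 41.3% of all genes. Cytochrome c oxidase assembly factor PDE_08885 (3.58 ± 0.17) and cytochrome c oxidase subunit PDE_07280, at 477, 561 and 555 against 73.2, 92.2 and 90.0 (2.63 ± 0.13), had the largest differences. ATP synthase genes were higher in 15 of 15, NADH dehydrogenase genes in 18 of 19, and cytochrome c oxidase genes in 15 of 19. Their shares were 100%, 94.7% and 78.9%, against 36.2% of all genes. The single lower gene was the assembly factor PDE_05000 (-0.44 ± 0.13). Against WT, DlaeA had 9 of the 66 higher and 30 lower, where 46.3% and 23.6% of all genes were. H2BK131A had 59 of them higher than WT and 0 lower, where 40.6% and 30.2% of all genes were.

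Of 67 cytosolic ribosomal protein genes 63 were higher (94.0%, against 36.2% of all genes) and 2 lower (2.99%, against 41.3%), with a median of 1.60. With quantile scaling the median was 1.31 and 61 were higher. Ribosomal protein S12e PDE_02775 was at 717, 769.7 and 791 in H2BK131A and at 114, 154 and 175 in DlaeA (2.38 ± 0.29), and L10Ae PDE_00779 was higher by more (3.61 ± 0.22). The 2 lower genes were L36e PDE_00351, at low levels of 1.2, 1.33 and 1.34 against 4.67, 3.39 and 3.25, and L3e PDE_03179 (-0.44 ± 0.12). H2BK131A was higher than H2BK123A in 64 of the 67, with a median of 2.16, where 32.9% of all genes were higher. Among 52 mitochondrial ribosomal protein genes 45 were higher (86.5%, against 36.2% of all genes) and 3 lower (5.77%, against 41.3%). Their median was 0.83, and L11 PDE_07512 (1.75 ± 0.15) and S29 PDE_00825 (1.45 ± 0.13) led them.

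Supporting functions were less one-sided. Ribosome biogenesis genes were higher in 37 of 98 (37.8%, near the 36.2% of all genes). Only 15 were lower (15.3%, against 41.3%), and 46 were not called. U3 small nucleolar RNA-associated protein PDE_09406, of ribosomal RNA processing, was at 242, 256 and 277 against 19.6, 18.9 and 17.9 (3.71 ± 0.15), while ribosome assembly protein PDE_04000 was lower (-2.72 ± 0.12). Of 43 tRNA synthetase genes 27 were higher (62.8%, against 36.2% of all genes) and 7 lower (16.3%, against 41.3%). The 3 genes named here that are described as isoleucyl-tRNA synthetase were split, with PDE_04448 at 29.8, 47 and 33.9 in H2BK131A and at 0.07, 0 and 0 in DlaeA (5.19 ± 0.19), and PDE_05988 (-3.14 ± 0.19) and PDE_05986 (-1.63 ± 0.18) lower.

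Amino acid synthesis genes were higher in 65 of 91 (71.4%, against 36.2% of all genes) and lower in 17 (18.7%, against 41.3%), a median of 1.27. PDE_01746, described as a fused carbamoyl-phosphate synthase and aspartate carbamoyltransferase, is in the list by its name but belongs to pyrimidine synthesis. It was at 125, 135 and 136 in H2BK131A and at 4.83, 4.37 and 3.95 in DlaeA (4.63 ± 0.56). Methionine synthase PDE_05422 was at 115, 158 and 159 against 4.75, 6.66 and 5.84 (4.42 ± 0.29). Both were close to H2BK123A, with differences of 0.65 and 0.09. Cystathionine gamma-synthase PDE_04106, an earlier enzyme of methionine synthesis, was lower, at 3.39, 2.52 and 2.71 against 183, 128 and 133 (-5.25 ± 0.43), and so was an aminotransferase of branched-chain amino acids, PDE_03805 (-3.67 ± 0.23).

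**Figure D4:**
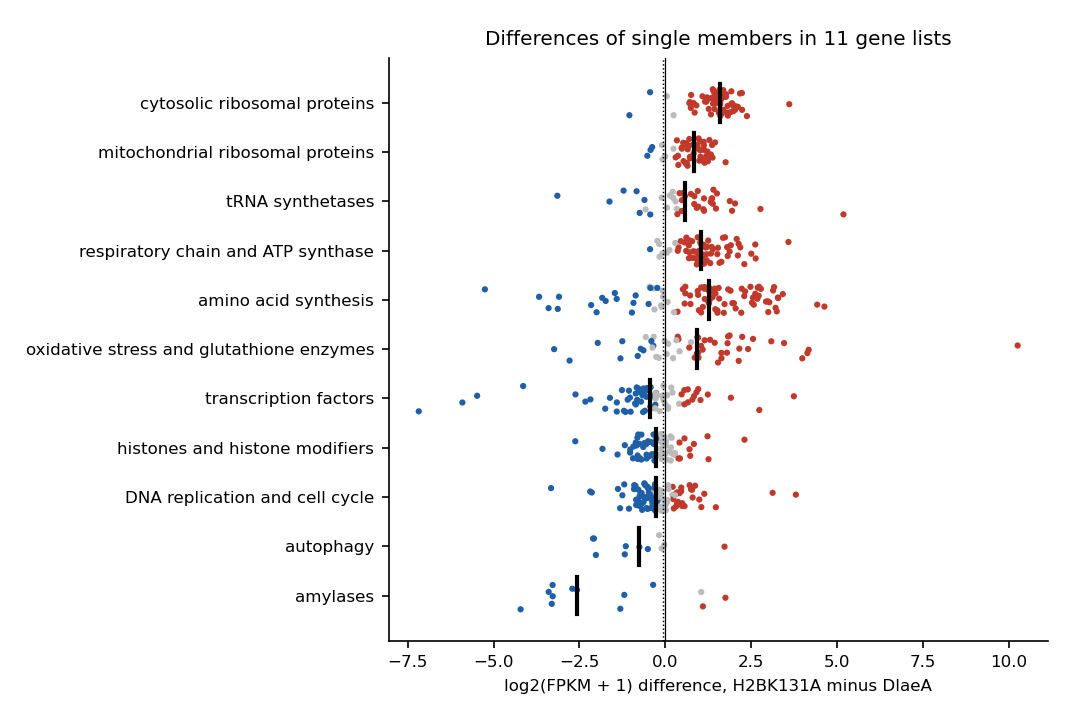
Difference of each tested member, H2BK131A minus DlaeA, in 11 gene lists, coloured red when called higher, blue when called lower and grey when not called, with a black bar at the list's median and a dotted line at the median of all genes, -0.08. Ribosomal and respiratory genes lie almost wholly to the right, and amylases, transcription factors and autophagy genes mostly to the left.

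Regulatory genes were more often called lower than higher in H2BK131A, as were all genes. Of 78 transcription factor genes 47 were lower (60.3%, against 41.3% of all genes) and 14 higher (17.9%, against 36.2%). Their median was -0.46, and it was -0.36 with median ratio scaling. BrlA and FlbD were the lowest, and the gene described as the activator UGA3, PDE_04982, was lower as well, at 42.3, 25.3 and 31.4 against 645, 558 and 559 (-4.14 ± 0.16). The largest higher members were an HMG box gene, PDE_06698, at 23.4, 22.4 and 24.4 against 0.77, 0.9 and 0.8 (3.74 ± 0.10), and a gene described as CAT8, PDE_09448 (2.74 ± 0.14). The HMG box gene was lower in H2BK131A than in H2BK123A (-1.39).

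Among 72 genes for histones and histone modifiers 36 were lower, 10 higher and 26 not called, with a median of -0.27. The lower and higher shares were 50% and 13.9%, against 41.3% and 36.2% of all genes. With median ratio and quantile scaling the counts were 33 lower with 17 higher and 32 lower with 16 higher. The largest lower members were subunits of chromatin remodelling complexes, which slide or evict nucleosomes: PDE_04912, described as RSC3/30, at 4.46, 3.26 and 3.63 against 29.5, 27.3 and 28.1 (-2.62 ± 0.12), and PDE_09362 of the SWI/SNF type (-1.83 ± 0.18). The helicase PDE_06349, described as acting in RNAi-mediated heterochromatin assembly, was higher at low levels, at 5.37, 5.54 and 5.64 against 0.34, 0.33 and 0.29 (2.30 ± 0.18). The deacetylase complex subunit SAP18, PDE_00041, was higher too (1.26 ± 0.15). The histone H4 gene PDE_00232, chosen after its values were seen, was not called (0.27 ± 0.14, limma adjusted p = 0.0956) except with median ratio scaling (0.38, limma adjusted p = 0.0158).

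DNA replication and cell cycle genes were lower in 54 of 107 and higher in 26, a median of -0.28. These are 50.5% and 24.3%, against 41.3% and 36.2% of all genes. Cyclin PLC1 PDE_02889 was at 5.47, 4.33 and 4.51 in H2BK131A and at 50.9, 59.1 and 60.5 in DlaeA (-3.33 ± 0.12), and origin recognition subunit ORC2 PDE_07756 was higher (3.12 ± 0.12). Of 11 autophagy genes 7 were lower (63.6%, against 41.3% of all genes) and 1 was higher (9.09%, against 36.2%). ATG2 PDE_08147 (-2.08 ± 0.14) and the ATG4 gene were among the lower, and ATG33 PDE_09680 (1.72 ± 0.11) was the higher one. Proteasome genes were near balance, with 11 higher (23.4%, against 36.2% of all genes) and 13 lower (27.7%, against 41.3%) of 47. That balance turned with scaling, to 18 higher and 12 lower by median ratio and 7 higher and 18 lower by quantiles.

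Cell wall genes carried large differences in both directions. Of 46 chitin genes 19 were higher and 18 lower, and of 94 genes for wall glucan and mannan 41 were higher and 33 lower, shares near those of all genes. The chitin glucanosyltransferase PDE_07531, which links chitin to glucan, was at FPKM 269, 343 and 267 in H2BK131A and at 0.09, 0.32 and 0.54 in DlaeA (7.81 ± 0.35). Chitinase PDE_05082 was at 718, 653 and 758 against 10.2, 11 and 8.63 (6.03 ± 0.11), and a beta-1,3-glucanase, PDE_03291, at 167, 175 and 159 against 0.07, 0.17 and 0.1 (7.24 ± 0.21). On the other side stood the alpha-1,6-mannanase PDE_00051, at 2.2, 1.86 and 1.9 against 339, 244 and 248 (-6.53 ± 0.13), the exo-beta-1,3-glucanase PDE_08250 (-6.48 ± 0.11) and a chitinase, PDE_01779 (-5.09 ± 0.21). PDE_00051 and PDE_08250 did not differ much between the H2B mutants (-0.22 and 0.38, limma adjusted p = 0.166 and 0.00958).

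Secreted and vacuolar peptidases were higher in 33 of 87 (37.9%) and lower in 41 (47.1%), near the shares of all genes. Those of hemicellulases and pectinases, at 40.4% higher and 49.4% lower, were near them too. Aspergillopepsin I PDE_07344, a secreted acid protease, was at 354, 298 and 414 in H2BK131A and at 1.27, 2.46 and 0.67 in DlaeA (7.23 ± 0.22). WT, at 2386, 2294 and 2305, and H2BK123A, at 1188, 1234 and 944, were above both strains in it. Carboxypeptidase D PDE_05305 was higher in H2BK131A than in DlaeA too (6.19 ± 0.23). Deuterolysin PDE_07936, a secreted metalloprotease, was lower, at 26, 23.4 and 27.8 against 321, 992 and 967 (-4.66 ± 0.33).

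Genes against oxidative stress were higher in 32 of 54 (59.3%, against 36.2% of all genes) and lower in 10 (18.5%, against 41.3%). Their median was 0.92, and 10 of 12 glutathione S-transferase genes were higher (83.3%). Beside PDE_01194 above, catalase PDE_05708, which breaks down hydrogen peroxide, was at 87.2, 125 and 106 against 5.29, 4.4 and 4.95 (4.17 ± 0.26). The dehydrogenase PDE_08306, which acts on glutathione-bound formaldehyde, was lower (-3.24 ± 0.25). Heat shock genes were higher in 21 of 37 (56.8%, against 36.2% of all genes) and lower in 8 (21.6%, against 41.3%). The small heat shock protein genes PDE_00322, at 1842, 2397 and 2246 against 34, 48.9 and 43.1 (5.66 ± 0.18), and PDE_02095, at 7719, 9158 and 8734 against 1203, 1151 and 1279.7 (2.81 ± 0.30), had the largest differences of this list, and the DnaJ homolog PDE_06012 was among the lower (-1.08 ± 0.09).

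Fatty acid and peroxisome genes were lower in 46 of 90 (51.1%, against 41.3% of all genes) and higher in 25 (27.8%, against 36.2%). Their median was -0.38. Methylisocitrate lyase PDE_06062, of propionate use, was at 2839.9, 3106 and 3473 in H2BK131A and at 296, 145 and 152 in DlaeA (4.06 ± 0.56). Acyl-CoA dehydrogenase PDE_08787 was lower (-3.96 ± 0.19), as was stearoyl-CoA desaturase PDE_02138 (-4.17 ± 0.41), which makes oleic acid. Outside the lists, linoleate 10R-lipoxygenase PDE_04936, an enzyme of oxylipin synthesis, was at 3.29, 3.47 and 3.56 against 1063, 1017 and 1041 (-7.87 ± 0.34). 4-hydroxyphenylpyruvate dioxygenase PDE_09761, of tyrosine breakdown, was at 1269.6, 1242 and 1360.2 against 10.9, 6.72 and 5.47 (7.26 ± 0.30).

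**Figure D5:**
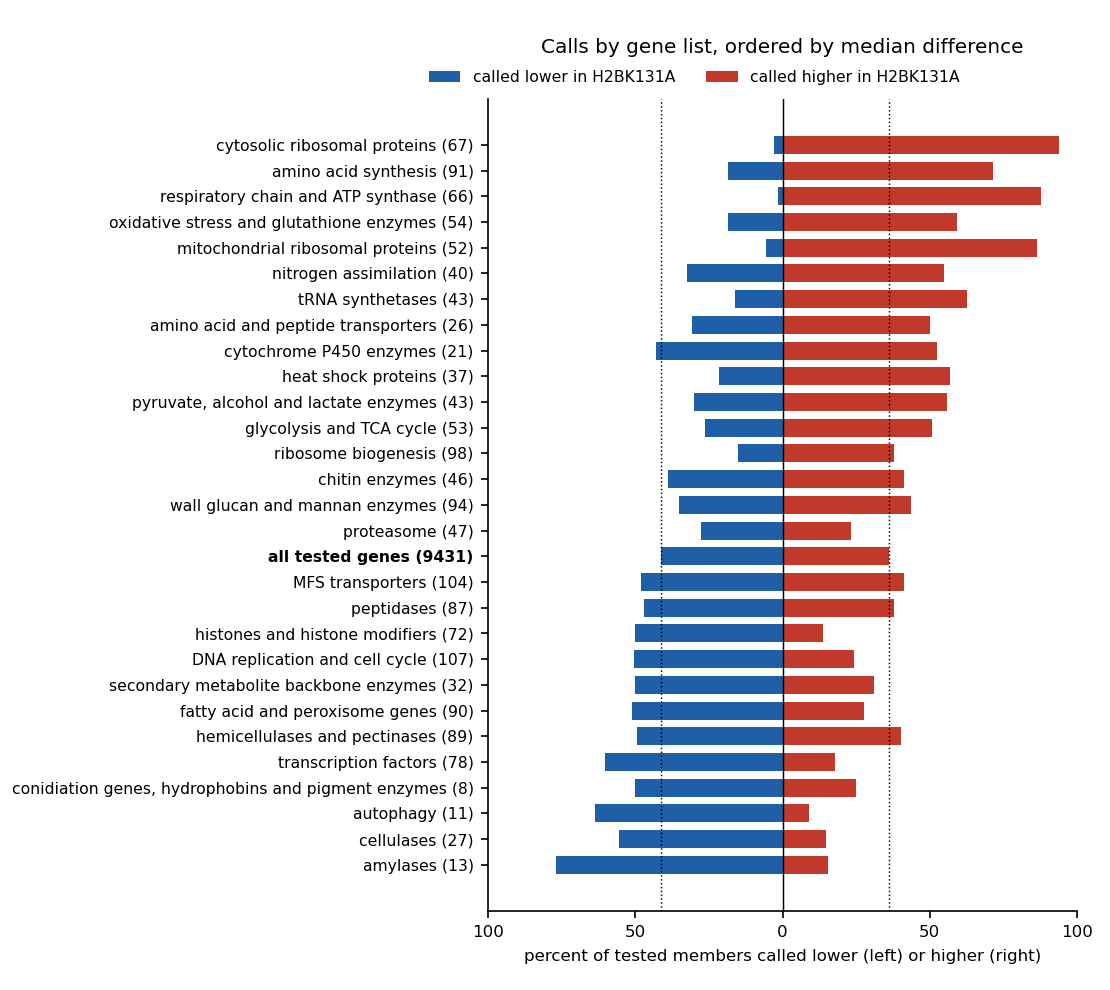
Percent of the tested members of 28 gene lists called lower (left) or higher (right) in H2BK131A than in DlaeA, with the number tested in brackets, ordered by median difference. Dotted lines mark the shares over all tested genes, 41.3% lower and 36.2% higher. Cytosolic ribosomal proteins stand at the top and amylases at the bottom.

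Several genes without a usable description were among the extremes. PDE_06929 was at 1016, 779.6 and 868 in H2BK131A and at 0.66, 1.41 and 0.17 in DlaeA (9.04 ± 0.23), and H2BK123A was as high as H2BK131A (0.15). PDE_04041, at 1361, 2061 and 1509 against 1.8, 4.82 and 4.54 (8.50 ± 0.34), was in contrast high in H2BK131A only (7.06 from H2BK123A, limma adjusted p = 1.61e-08). On the lower side, PDE_04665 was at 3.7, 7.62 and 5.99 against 3921, 3275 and 3169.8 (-9.03 ± 0.42), and PDE_07434 differed by -8.93 ± 0.57. The most abundant gene of the DlaeA libraries, PDE_09832, has no description beyond terms for the cell wall and a structural molecule, and was chosen after its values were seen. It was at 70.0, 81.5 and 113 in H2BK131A and at 24726, 25159 and 27419.6 in DlaeA (-8.20 ± 0.26), with WT at 6109, 8668 and 10523.

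Differences from DlaeA were not all shared by the H2B mutants. Between H2BK131A and H2BK123A 6479 of the 9431 genes were called (68.7%). Against WT 6675 genes were called for H2BK131A (70.8%) and 6596 for DlaeA (69.9%), and these comparisons share libraries with the main one. In the nitrate genes PDE_00369 to PDE_00371 and the pyruvate decarboxylase PDE_04873 the test between the H2B mutants placed H2BK131A higher, and in the run beside H2B by more, 5.72 in PDE_01482 and 6.91 in PDE_01478. In BrlA, FlbD, the glucoamylase PDE_09417 (-6.21) and the beta-glucosidase PDE_02736 (-5.22) it placed H2BK131A lower. In the symporter PDE_03475 the H2B mutants were at the same low level, with a difference of -0.09 ± 0.24 (limma adjusted p = 0.743).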

How the data were processed

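RNA from 12 mycelial libraries was profiled, 3 for each of 4 strains, grouped by sample titles. Per the labels' protocols, NlaIII and MmeI cut bead-bound cDNA into short tags. The deposited table nevertheless holds FPKM per gene and library, per the file headers. Aligner, genome build and annotation: not given in the sources used here. FPKM sums differ little between libraries, so a rise in many abundant genes lowers the values of others.

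Values entered as log2(FPKM + 1), that is with a pseudocount of 1, and were fitted with limma 3.58.1 in R 4.3.3. Strain was the only term over all 12 libraries, with an empirical Bayes mean-variance trend and 8 residual degrees of freedom, and tests were two-sided. The script was tested on simulated data.

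Gene names are those of the deposited table, which gives 5078 genes a usable description. The 28 lists come from search patterns on these names. Members and lists were chosen with earlier results of these data known. The text names genes from the extremes among described genes, the 2 largest members of each list in each direction, members of runs and loci recalled for this fungus. Alternatives were another pseudocount, no filter, 2 other scalings, the 6 libraries alone, a replicate block, averaging DlaeA 2 with DlaeA 3, and leaving out libraries. Sequences and coordinates are not used here.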

Additional observations from a re-analysis of the deposited data

How the results depend on the processing

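Called genes between H2BK131A and DlaeA numbered 7308, and between 6881 and 7624 under 14 alternatives. Leaving out 1 library of either strain gave 6881 to 7015. Averaging DlaeA 2 with DlaeA 3 left 6964. No filter on low values gave 7476 of 9931 genes, and a pseudocount of 0.1 gave 7268. The shared replicate numbers did not pair the libraries, since the deviations of same-numbered libraries correlated at 0.042, -0.03 and 0.09 across genes. With the replicate number as a block 7214 genes were called.

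Each called gene with values in the text kept its direction in these 14 alternatives. PDE_01489 and PDE_01490 lost their call with quantile scaling, PDE_01213 without DlaeA 1, and PDE_01218 in 10 alternatives. The cause for the histone genes was not tested, while the other 2 genes had small p-values without WT 2, which widens the shared spread. PDE_09236, not called in any setting, changed sign with a pseudocount of 0.1 (0.24), with median ratio scaling (0.012), and ranged from -0.46 to 0.22 when 1 library was left out. Depth is unknown, which limits what can be said of genes near an FPKM of 1.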
